A study of Mus musculus with 10 samples.

Results

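The genes described here are 10 genes known as products of fat cells, and 9 of them were measured among the 19938 named genes of the arrays. They were the adipokines Adipoq and Retn, the fatty acid binding protein Fabp4 and the carbonic anhydrase Car3. The others were the lipid droplet genes Plin1, Plin4 and Cidec, the lipase gene Lipe and the carboxykinase gene Pck1. A member was taken as a probe set whose platform annotation gave exactly 1 symbol, that symbol being on the list, and each of the 9 was read by 1 such probe set. Cfd, the gene of adipsin, was not analysed here. Where a gene has several such probe sets the rule keeps the brightest over the 10 arrays, a choice that did not arise here. The list itself was chosen with earlier results of these data known. In the RefSeq annotation of GRCm38.p6 the secreted factors were Adipoq at chr16:23146536-23157968 and Retn at chr8:3655770-3659818, and the droplet genes were Plin1 at chr7:79721164-79732904, Plin4 at chr17:56100587-56109948 and Cidec at chr6:113424634-113435760. Chromosome 3 holds Car3 at chr3:14863538-14872381 and Fabp4 at chr3:10204342-10208616, and the other members were Lipe at chr7:25379527-25398486 and Pck1 at chr2:173153073-173159274.

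Adipocytes store triglyceride in a droplet whose coat of perilipins controls the access of lipases, and they release fatty acids and hormones into the blood. Fat cells lie on and around the heart of a mouse, while an isolated ventricular cardiomyocyte preparation is meant to hold muscle cells. Several of these genes are not exclusive to fat, since microvascular endothelium makes Fabp4 and striated muscle uses Plin4 and hormone-sensitive lipase.

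The study set mice with a knockdown of VAChT, the vesicular acetylcholine transporter encoded by Slc18a3, against wild-type mice. There were 3 arrays of KD ventricular cardiomyocytes and 3 of WT ventricular cardiomyocytes, and 2 arrays of KD whole hearts and 2 of WT whole hearts. All mice were male C57BL/6 animals at 3 months of age and had received no treatment, and the series title names the heart genotype VAChT KDHOM. Each array carried RNA pooled from 2 samples, and nothing in the labels says which animals these came from. The p-values below therefore measure the spread between arrays, which may be technical. How the knockdown allele was made is not given in the sources used here. Cardiomyocyte RNA and heart RNA were labelled by different manuals, so the labelling and the tissue cannot be told apart.

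The values are log2 intensities, and the number of arrays limits their precision. Array medians over all probe sets lay between 5.82 and 5.93 in cardiomyocytes and between 7.25 and 7.31 in hearts. For that reason cardiomyocytes and hearts were compared by percentile rank, the place of a gene among the 19938 genes of its own array on a scale of 0 to 100. The 12 cardiomyocyte markers had median percentile ranks between 99.86 and 99.94 in the 10 arrays. Slc18a3, the gene of the targeted transporter, had 7.31 and 7.84 in KD hearts and 7.34 and 7.72 in WT hearts, so its heart arrays overlapped. KD heart replicate 1 stood apart by thymocyte and T cell markers: the median of 13 of them was 9.64 in it and 6.78 in KD heart replicate 2, against 6.62 and 6.92 in WT hearts. The 2 KD hearts correlated with each other at 0.980 over all genes, and the 2 WT hearts at 0.993.

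Promoter sequence is shown for the adipokine Adipoq, which separated cardiomyocytes from hearts by a wide gap, for the droplet coat gene Plin1, and for Plin4, which was the member that ranked higher in cardiomyocytes. Each is the 250 bases before a RefSeq transcript start in GRCm38.p6, written along the gene's own strand, with matches to CCAAT on either strand in capitals for Adipoq and Plin4 and matches to TTNNGCAA on either strand in capitals for Plin1.
Adipoq, chr16:23146286-23146535, plus strand: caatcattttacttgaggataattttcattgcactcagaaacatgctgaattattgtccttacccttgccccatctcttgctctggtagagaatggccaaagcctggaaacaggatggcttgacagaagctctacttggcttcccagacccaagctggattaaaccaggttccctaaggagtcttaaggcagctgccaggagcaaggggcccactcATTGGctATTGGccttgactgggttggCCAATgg
Plin1, chr7:79732777-79733026, minus strand: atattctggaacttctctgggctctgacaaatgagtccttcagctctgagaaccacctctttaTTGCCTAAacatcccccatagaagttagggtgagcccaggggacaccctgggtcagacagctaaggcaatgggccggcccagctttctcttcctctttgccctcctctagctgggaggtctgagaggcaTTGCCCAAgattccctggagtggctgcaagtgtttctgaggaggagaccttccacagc
Plin4, chr17:56109783-56110032, minus strand: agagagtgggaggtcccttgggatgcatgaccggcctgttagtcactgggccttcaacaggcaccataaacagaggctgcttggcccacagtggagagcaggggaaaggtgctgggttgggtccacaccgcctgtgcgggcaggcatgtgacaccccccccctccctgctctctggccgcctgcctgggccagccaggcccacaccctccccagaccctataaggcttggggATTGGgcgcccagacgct
RefSeq windows were at hand for 7 of the 9 members, and for Cidec and Lipe there were several starts, giving 9 windows. Adipoq held 3 CCAAT matches and Plin4 held 1, a motif found in 33.9% of 32841 windows of the same length. Plin1 held 2 matches to TTNNGCAA, the pattern bound by C/EBP factors, and the second Cidec window held 1, against 9.57% of all windows. The direct repeat AGGTCANAGGTCA, the pattern of PPAR and RXR partners, its single copy AGGTCA and the TATA pattern TATAAA had no match in the 9 windows. AGGTCA also lies inside the direct repeat, so these searches overlap. Among all windows their shares were 0.0335%, 14% and 12.4%. A match describes letters in a window and is not a binding site.

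Adipoq and Car3 ranked far lower in cardiomyocytes than in whole hearts, at mean percentile ranks of 10.7 against 69.9 and of 29.9 against 97.4. By limma on percentile ranks, 8 of the 9 members ranked lower in cardiomyocytes than in hearts and 1, Plin4, ranked higher. Over all genes 33.9% were called lower and 36.2% higher in cardiomyocytes, so a call in this comparison was common, and the sizes of the differences carry more than their number. All cardiomyocyte arrays lay below all heart arrays for 7 members, beside 28.1% of all genes, and above them for Plin4, beside 30.6%. The members ran across a wide span of differences, between 67.5 points lower for Car3 and 14.1 points higher for Plin4, with a median of -17.0 points against 0.17 for all genes. A lower rank was not particular to fat cell genes. Median differences were -48.7 points for red cell and platelet, -44.0 for macrophage, -28.1 for fibroblast, -28.0 for mesothelial and -19.2 for thymocyte and T cell markers. They were -3.0 for endothelial, 0.80 for skeletal muscle and 0.0002 for cardiomyocyte markers.

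**Figure D1:**
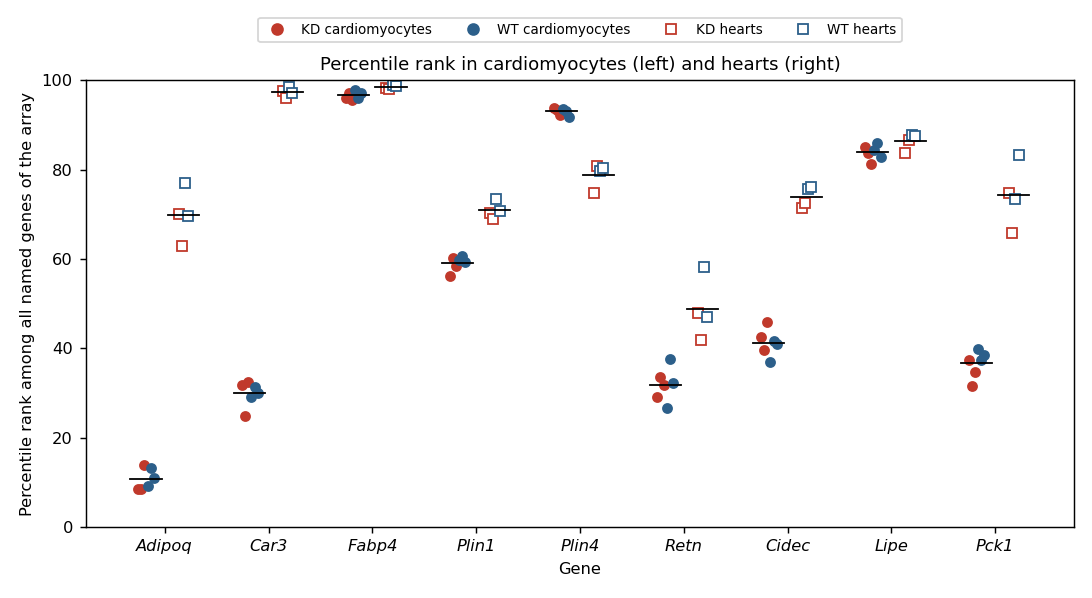
Percentile rank of each member among the 19938 genes of its array (vertical axis, 0 to 100), with 1 point per array, cardiomyocytes on the left and hearts on the right of each gene. Adipoq, Car3, Pck1 and Cidec show gaps between the tissues, Fabp4 and Lipe lie close together in both, and Plin4 is the member whose cardiomyocyte points lie above its heart points.

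Adipoq encodes adiponectin, a hormone made by fat cells. It had 3.83, 3.88 and 4.28 in KD cardiomyocytes and 3.90, 4.26 and 4.05 in WT cardiomyocytes. Its heart values were 8.36 and 8.03 in KD and 8.69 and 8.32 in WT. In percentile rank the cardiomyocyte arrays lay between 8.51 and 13.9 and the heart arrays between 62.9 and 77.1, with no overlap. The mean rank was 10.7 ± 2.4 in cardiomyocytes (SD, n = 6) and 69.9 ± 5.8 in hearts (SD, n = 4), a difference of -59.2 points (SE 2.14, adjusted p = 5.1e-08). The table holds no detection calls, so whether the cardiomyocyte signal exceeded background is unknown.

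Car3 encodes carbonic anhydrase III, a cytosolic enzyme abundant in fat and in slow skeletal muscle. It had 5.23, 5.0 and 5.32 in KD cardiomyocytes and 5.11, 5.30 and 5.22 in WT cardiomyocytes, and 11.09 and 10.51 in KD hearts and 11.68 and 10.97 in WT hearts. Its rank averaged 29.9 ± 2.8 in cardiomyocytes (SD, n = 6) and 97.4 ± 1.1 in hearts (SD, n = 4). The difference was -67.5 points (SE 1.81, adjusted p = 1.4e-08), the largest in size among the 9 members, and no cardiomyocyte array reached any heart array.

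Retn, the gene of the adipokine resistin, had 5.10, 5.46 and 5.29 in KD cardiomyocytes and 4.99, 5.63 and 5.33 in WT cardiomyocytes, and 7.48 and 7.31 in KD hearts and 7.85 and 7.43 in WT hearts. Its rank was 31.8 ± 3.8 in cardiomyocytes (SD, n = 6) and 48.8 ± 6.8 in hearts (SD, n = 4), a difference of -17.0 points (SE 2.80, adjusted p = 4.4e-04). The arrays did not overlap, although the highest cardiomyocyte rank was 37.6 and the lowest heart rank 41.9.

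The droplet genes split. Cidec, whose product fuses and enlarges droplets, had 5.78, 5.77 and 6.00 in KD cardiomyocytes and 5.51, 5.82 and 5.77 in WT cardiomyocytes, against heart values of 8.42 and 8.43 in KD and 8.62 and 8.63 in WT. Its rank was 41.3 ± 3.0 in cardiomyocytes (SD, n = 6) and 73.9 ± 2.3 in hearts (SD, n = 4), a difference of -32.6 points (SE 1.73, adjusted p = 3.4e-07). Plin1, the perilipin of the fat cell droplet that gates hormone-sensitive lipase, had 6.53, 6.79 and 6.65 in KD cardiomyocytes and 6.75, 6.79 and 6.73 in WT cardiomyocytes. Its heart values were 8.37 and 8.26 in KD and 8.51 and 8.36 in WT. Its ranks were 59.0 ± 1.6 in cardiomyocytes (SD, n = 6) and 70.9 ± 1.9 in hearts (SD, n = 4), a difference of -11.8 points (SE 1.35, adjusted p = 3.9e-05), again without overlap.

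Plin4, a perilipin of small droplets, went the other way. It had 9.69, 9.50 and 9.38 in KD cardiomyocytes and 9.61, 9.47 and 9.28 in WT cardiomyocytes, and 8.58 and 8.85 in KD hearts and 8.85 and 8.87 in WT hearts. Every cardiomyocyte array ranked it above every heart array, at 93.0 ± 0.79 (SD, n = 6) against 78.9 ± 2.7 (SD, n = 4), a difference of 14.1 points (SE 1.02, adjusted p = 2.0e-06). After quantile normalization of the 10 arrays together its level in cardiomyocytes was 2.63-fold that in hearts. Adipoq differed by -3.11 and Car3 by -4.99 on the same log2 scale, cardiomyocytes minus hearts.

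Fabp4 and Lipe differed little in rank between the tissues, but Fabp4 lay near the top of the rank scale in both, where a rank difference has little room. Fabp4, the cytosolic fatty acid carrier of fat cells and capillary endothelium, had 10.22, 10.51 and 10.05 in KD cardiomyocytes and 10.78, 10.08 and 10.50 in WT cardiomyocytes, and 11.47 and 11.21 in KD hearts and 11.86 and 11.79 in WT hearts. Its ranks of 96.7 ± 0.84 in cardiomyocytes (SD, n = 6) and 98.5 ± 0.40 in hearts (SD, n = 4) differed by -1.85 points (SE 0.417, adjusted p = 0.003). In log2 values after quantile normalization, cardiomyocytes minus hearts, Fabp4 differed by -0.85 and Lipe by -0.23. Retn differed by -0.78 and Plin1 by -0.62 on that scale, so Fabp4 was not nearly unchanged there. Centring on array medians, described below, gave the other sign for Fabp4 and Lipe. The endothelial markers moved in the same direction. In cardiomyocytes 9 of 13 were called lower and 4 were not called, beside 33.9% of all genes called lower. Their array medians were 86.6 to 89.4 in cardiomyocytes and 94.8 to 96.1 in hearts. Their part in the Fabp4 value was not tested.

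Lipe, the gene of hormone-sensitive lipase, had 8.54, 8.29 and 8.14 in KD cardiomyocytes and 8.46, 8.53 and 8.26 in WT cardiomyocytes, and 9.09 and 9.24 in KD hearts and 9.41 and 9.40 in WT hearts. Its ranks overlapped, at 83.9 ± 1.7 in cardiomyocytes (SD, n = 6) and 86.4 ± 1.8 in hearts (SD, n = 4), and the difference of -2.53 points was called by limma (SE 0.945, adjusted p = 0.036). The call was lost without WT heart replicate 1 (adjusted p = 0.084) and without 6 other arrays in turn. When arrays were centred on their medians instead, Lipe and Fabp4 turned to 0.42 and 0.11 log2 higher in cardiomyocytes, the 2 members whose direction depended on the scale.

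Pck1 encodes the cytosolic phosphoenolpyruvate carboxykinase, which in fat cells serves an early step toward the glycerol phosphate of triglyceride. It had 5.53, 5.35 and 5.44 in KD cardiomyocytes and 5.65, 5.61 and 5.65 in WT cardiomyocytes, and 8.57 and 8.15 in KD hearts and 8.51 and 9.07 in WT hearts. Its rank was 36.6 ± 3.0 in cardiomyocytes (SD, n = 6) and 74.3 ± 7.1 in hearts (SD, n = 4), a difference of -37.7 points (SE 2.53, adjusted p = 1.3e-06) with no overlap. An exact permutation test of 6 arrays against 4 gave p = 0.00952, the smallest it can give, for each member but Lipe, at p = 0.0476. Any gene whose ranks do not overlap between the tissues gets that smallest value, so it restates the separation above. Such genes made up 28.1% of all genes with cardiomyocytes lower and 30.6% with cardiomyocytes higher. Across the tissues, fewer cells of a type and less RNA per cell cannot be told apart. Labelling manual and tissue cannot be told apart in any of these differences.

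Related genes of the members did not follow one course. Retnla, a resistin-like molecule of macrophages and fat, ranked 10.1 in cardiomyocytes and 57.9 in hearts, and Retnlb and Retnlg had heart ranks of 8.86 and 16.2. Pck2, the mitochondrial counterpart of Pck1, ranked 56.7 in cardiomyocytes and 57.5 in hearts, a difference of -0.86 points (95% interval -4.19 to 2.48). Fabp3, the carrier of heart muscle, ranked 99.87 in cardiomyocytes and 99.84 in hearts. Fabp5, the epidermal type carrier, ranked 61.4 in cardiomyocytes and 62.8 in hearts (difference -1.36 points, 95% interval -6.71 to 3.99).

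Among the other droplet coat genes, Plin2 and Plin3 ranked lower in cardiomyocytes (92.3 against 95.2, adjusted p = 0.0015, and 91.8 against 96.3), and the muscle perilipin Plin5 ranked higher (86.8 against 84.2, adjusted p = 0.011). Cidea, a droplet gene known from brown fat, had 79.5 in cardiomyocytes and 82.6 in hearts, a difference of -3.07 points that did not pass (adjusted p = 0.073). Of the carbonic anhydrases, Car5b, a mitochondrial form, had 13.6 in cardiomyocytes and 72.6 in hearts, while the membrane form Car14 had 93.7 in cardiomyocytes and 93.9 in hearts. The direction for Car14, Fabp5, Plin2, Cidea and Pck2 reversed when arrays were centred on their medians.

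Markers of white fat outside the members were called in both directions. Of 16 measured, 6 were called lower and 5 higher in cardiomyocytes and 5 passed in neither direction. Over all genes 33.9% were called lower and 36.2% higher, so these counts were near the shares of all genes. Cyp2e1, a cytochrome of fat and liver, ranked 19.6 in cardiomyocytes and 87.3 in hearts. Lep, the gene of the fat hormone leptin, ranked 30.9 in cardiomyocytes and 21.4 in hearts, higher in cardiomyocytes (adjusted p = 2.5e-04 by limma). Its values of 5.15 to 5.47 in cardiomyocytes and 6.25 to 6.48 in hearts were below the array medians. Whether either signal exceeded background is unknown. Pparg, the master regulator of fat cell formation, also ranked higher in cardiomyocytes, at 79.6 against 72.6, whereas its partner Cebpa ranked lower, at 45.1 against 65.8. Of 13 brown fat genes 5 were called lower and 5 higher in cardiomyocytes, again near the shares of all genes. Ucp1, the uncoupling protein of brown fat, ranked 16.9 in cardiomyocytes and 66.8 in hearts. The name of fat cell genes describes what these genes are known for, and in the arrays 5 members had a mean cardiomyocyte rank under 50 while Plin4, Fabp4 and Lipe averaged above 80.

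Within whole hearts, all 9 members had a lower mean in KD than in WT hearts, with differences between -0.52 and -0.12 and a median of -0.25, and none passed the test. Of all 19938 genes 0% were called and 47.5% had a lower mean in KD hearts, with a median difference of 0.0076. Genes that were bright in hearts leaned the same way when all genes were split into 4 equal classes by heart intensity. The median difference was -0.065 in the brightest class, which held 5 members, and 0.0041 in the next, which held 3. In these classes 67.1% and 48.5% of genes had a lower mean in KD hearts. With that trend removed by loess, 9 of 9 members were lower in KD hearts with a median of -0.28. Without KD heart replicate 1, the array with the thymocyte signal, 9 of 9 were lower with a median of -0.33. White fat markers outside the members had a lower mean in KD hearts for 14 of 16 (median -0.09), and brown fat genes for 8 of 13 (-0.03). Markers of other cell types went both ways. Means were lower in KD hearts for 13 of 13 endothelial (median -0.20), 12 of 12 fibroblast (-0.28), 12 of 12 cardiomyocyte (-0.14), 7 of 8 atrial (-0.69) and 8 of 10 mesothelial markers (-0.09). Means were higher in KD hearts for 13 of 13 thymocyte and T cell (median 1.31), 5 of 5 red cell and platelet (0.55), 11 of 12 skeletal muscle (0.08), 7 of 12 macrophage (0.01) and 6 of 9 airway markers (0.01). None of these markers was called. Their part in the members' values was not tested.

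**Figure D2:**
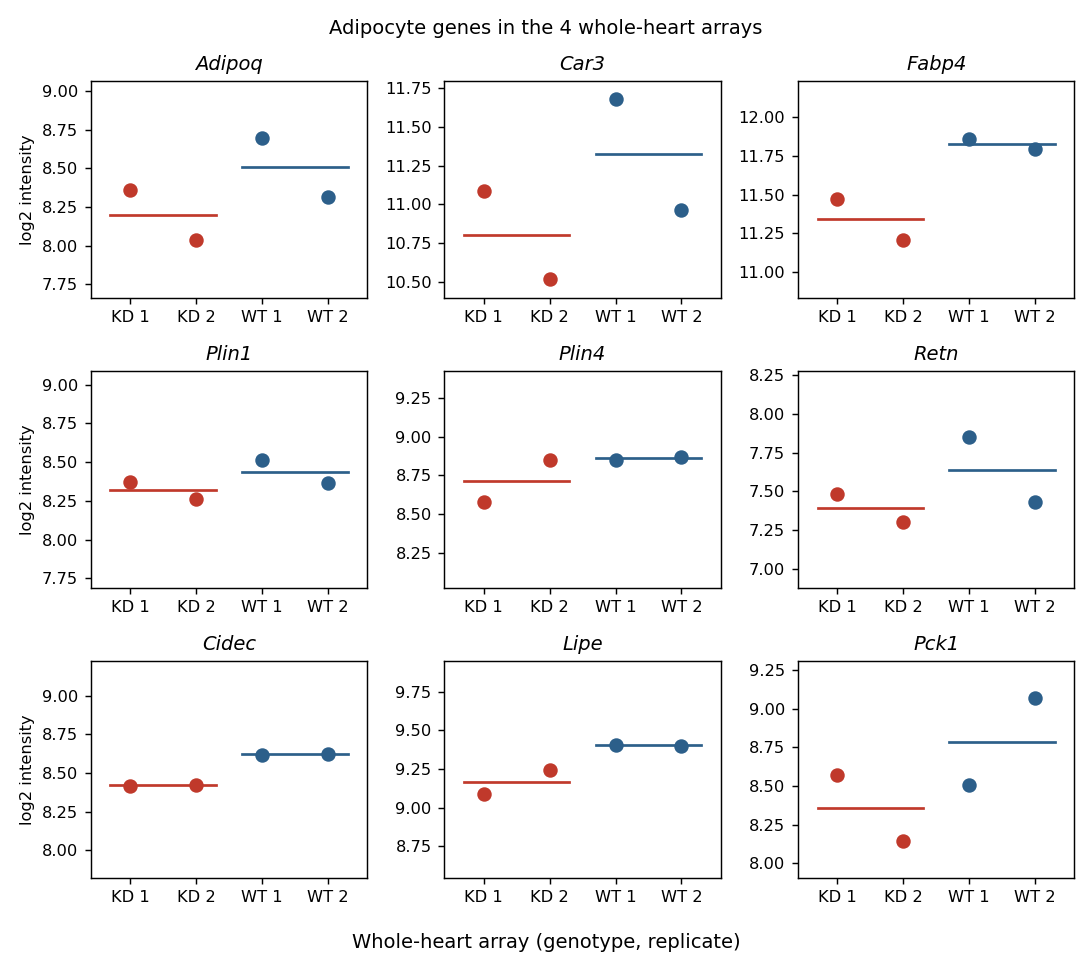
log2 intensity (vertical axis, each panel spanning the same range) of the 9 members in KD heart replicates 1 and 2 and WT heart replicates 1 and 2, 1 point per array. The Fabp4, Plin4, Cidec and Lipe panels show both KD points below both WT points, and the other 5 panels show overlapping genotypes.

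Among the adipokines, Adipoq was 8.36 and 8.03 in KD hearts, against 8.69 and 8.32 in WT hearts (mean 8.20 ± 0.23 and 8.51 ± 0.27, SD, n = 2 each). KD replicate 1 lay above WT replicate 2, so the genotypes overlapped. The difference was -0.31 (SE 0.19, 95% interval -0.71 to 0.09, adjusted p = 1.00 by limma), and it shrank to -0.12 without WT heart replicate 1. Retn differed by -0.25 (SE 0.20, 95% interval -0.68 to 0.18), also with overlap, and by -0.04 without WT heart replicate 1.

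Car3 averaged 10.80 ± 0.41 in KD hearts and 11.32 ± 0.50 in WT hearts (SD, n = 2 each), with KD replicate 1 above WT replicate 2. Its difference was -0.52 (SE 0.22, 95% interval -1.005 to -0.04, unadjusted p = 0.037, adjusted p = 0.96). It was -0.16 without WT heart replicate 1 and -0.88 without WT heart replicate 2. The enzyme varied by 1.16 log2 units over the 4 hearts, more than its genotype difference.

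Fabp4 averaged 11.34 ± 0.19 in KD hearts and 11.83 ± 0.05 in WT hearts (SD, n = 2 each), and both KD hearts lay below both WT hearts. The difference was -0.49 (SE 0.20, 95% interval -0.92 to -0.05, unadjusted p = 0.032, adjusted p = 0.95). Without one array at a time it lay between -0.62 and -0.35. The heart form Fabp3 also lay lower in both KD hearts, at 13.17 and 13.25 against 13.39 and 13.43 in WT hearts (difference -0.20, SE 0.09, unadjusted p = 0.048).

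The droplet coat genes differed by small amounts. Cidec was 8.42 and 8.43 in KD hearts and 8.62 and 8.63 in WT hearts, with an SD of 0.0045 in KD and 0.0048 in WT hearts, so the replicates of a genotype nearly coincided. Its difference of -0.20 had an SE of 0.13 from the spread limma shares over genes (95% interval -0.49 to 0.09, adjusted p = 1.00). Plin1 differed by -0.12 (95% interval -0.39 to 0.15) with overlapping arrays. Plin4 differed by -0.15 (95% interval -0.47 to 0.18) with both KD hearts below both WT hearts, but by -0.01 without KD heart replicate 1, since KD replicate 2 nearly reached WT replicate 1.

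Lipe was 9.09 and 9.24 in KD hearts and 9.41 and 9.40 in WT hearts, again without overlap. The difference was -0.24 (SE 0.15, 95% interval -0.56 to 0.08, adjusted p = 1.00). In all, 4 of the 9 members had both KD hearts below both WT hearts, beside 15.4% of all genes, and no member had the reverse, beside 14.2%.

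Pck1 had its lowest value in KD replicate 2 and its highest in WT replicate 2, and KD replicate 1 lay above WT replicate 1. It averaged 8.36 ± 0.30 in KD hearts and 8.79 ± 0.40 in WT hearts (SD, n = 2 each), a difference of -0.43 (SE 0.18, 95% interval -0.81 to -0.04, unadjusted p = 0.032, adjusted p = 0.95). Without WT heart replicate 2 the difference was -0.15. Fabp4, Car3 and Pck1 were the 3 members with an unadjusted p under 0.05 and a lower value in KD hearts, beside 2.49% of all genes.

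The members did not share a single heart as their extreme. WT replicate 1 was highest for 6 members and WT replicate 2 for 3, beside 22.4% and 19.2% of all genes. KD replicate 2 was lowest for 6 and KD replicate 1 for 3, beside 23.1% and 34.2% of all genes. Adipoq, Car3, Retn, Fabp4 and Plin1 had WT replicate 1 on top and KD replicate 2 at the bottom, and in each genotype replicate 1 exceeded replicate 2. Pck1 differed in that WT replicate 2 exceeded WT replicate 1 by 0.56. Ucp1 also had WT replicate 2 on top and KD replicate 2 at the bottom, with 8.48 and 7.56 in KD hearts and 8.03 and 9.004 in WT hearts. For Ucp1 the difference was -0.50 (SE 0.29, unadjusted p = 0.110), and -0.01 without WT heart replicate 2. Pdk4, the kinase that restrains pyruvate oxidation, had 10.43 and 11.05 in KD hearts and 11.08 and 11.87 in WT hearts. Its difference was -0.74 by limma (SE 0.30, unadjusted p = 0.030, adjusted p = 0.95), and -0.34 without WT heart replicate 2. Cidea had 8.79 and 8.97 in KD hearts and 8.95 and 9.37 in WT hearts, with overlap between the genotypes.

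**Figure D3:**
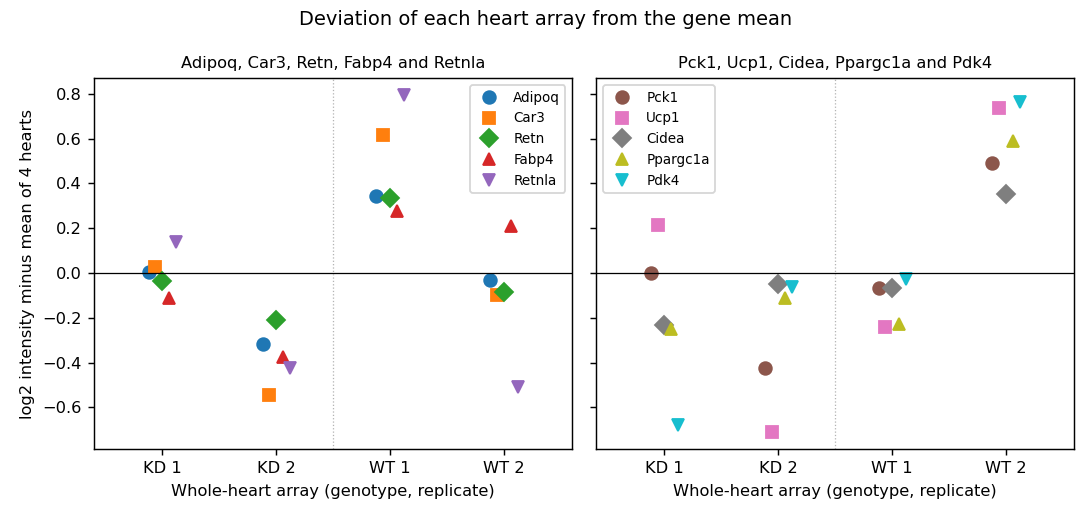
Deviation of each heart array from a gene's mean over the 4 hearts, in log2 units, for Adipoq, Car3, Retn, Fabp4 and Retnla (left panel) and for Pck1, Ucp1, Cidea, Ppargc1a and Pdk4 (right panel), 1 point per array. The 5 genes on the left are highest in WT replicate 1, and the 5 on the right are highest in WT replicate 2.

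The 10 named genes whose heart pattern was nearest to that of Adipoq lay at root mean square distances of 0.017 to 0.030 log2 units over the 4 hearts, each gene centred on its own mean. They were Dlat, which encodes a subunit of pyruvate dehydrogenase, Taco1, Tomm70a, Nus1, the glycogen phosphorylase gene Pygb, the collagen prolyl hydroxylase gene P4ha1, the malic enzyme gene Me1, Lamtor3, Mcts1 and Cog6. In all 535 of the other 19937 genes, or 2.68%, lay within 0.1 of Adipoq, so the pattern over 4 arrays is common. Among the members Retn was within that distance, at 0.063. Fabp4 stood at 0.14, Plin1 at 0.15, Car3 at 0.18, Cidec at 0.19, Lipe at 0.22, Plin4 at 0.26 and Pck1 at 0.34.

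Pathway genes of the fat cell outside the members were likewise not called between genotypes. The members are not on the lists used here. Of 19 measured lipid droplet and lipolysis genes, 17 had a lower mean in KD hearts (median -0.18), beside 47.5% of all genes and 67.1% of the brightest class. In 11 of the 19 both KD hearts lay below both WT hearts, beside 15.4% of all genes. These 19 genes were bright, with median heart ranks of 90.9 to 92.9. They included Gpd1, which makes glycerol phosphate, at -0.63 by limma (SE 0.20, unadjusted p = 0.0093, adjusted p = 0.95). Gpd1 was at -0.26 without KD heart replicate 2. Others were Dgat2, which makes triglyceride, at -0.34 (SE 0.17), and Aqp7, the glycerol channel, at -0.25 (SE 0.13). Of 12 fatty acid synthesis genes 9 had a lower mean (median -0.17), among them Me1 at -0.33 (SE 0.16). Of 10 genes of gluconeogenesis and glycerol formation 7 had a lower mean (median -0.07), with Pdk4 at -0.74 and the aminotransferase gene Got1 at -0.25 (SE 0.11). Of 12 secreted factors 7 were lower (median -0.09), and of 11 transcription regulators 7 were lower (median -0.01).

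Paralogs of Car3 went both ways in KD hearts. Car2, a widespread cytosolic form, had 7.74 and 7.79 in KD hearts and 6.68 and 7.44 in WT hearts. Its difference was 0.71 by limma (SE 0.20, unadjusted p = 0.0032, adjusted p = 0.94), and 0.33 without WT heart replicate 1. Car14 had 9.90 and 9.95 in KD hearts and 10.41 and 10.25 in WT hearts (difference -0.41, SE 0.13, unadjusted p = 0.0084, adjusted p = 0.95). Of the 15 carbonic anhydrases 6 had a lower mean in KD hearts.

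In isolated cardiomyocytes no member passed the test between genotypes (adjusted p = 1.00 for each). Differences lay between -0.19 for Pck1 and Fabp4 and 0.15 for Cidec, with a median of -0.07, and 0% of all genes were called. A lower mean in KD cardiomyocytes was found for 7 of the 9, beside 50% of all genes, and none had an unadjusted p under 0.05, beside 2.1% of all genes. Pck1 was the 1 member with all 3 KD arrays below all 3 WT arrays (5.44 ± 0.09 and 5.63 ± 0.02, SD, n = 3 each), an order seen in 3.21% of all genes, and none had the reverse, seen in 2.99%. Its difference was -0.19 (95% interval -0.51 to 0.12 by limma).

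**Figure D4:**
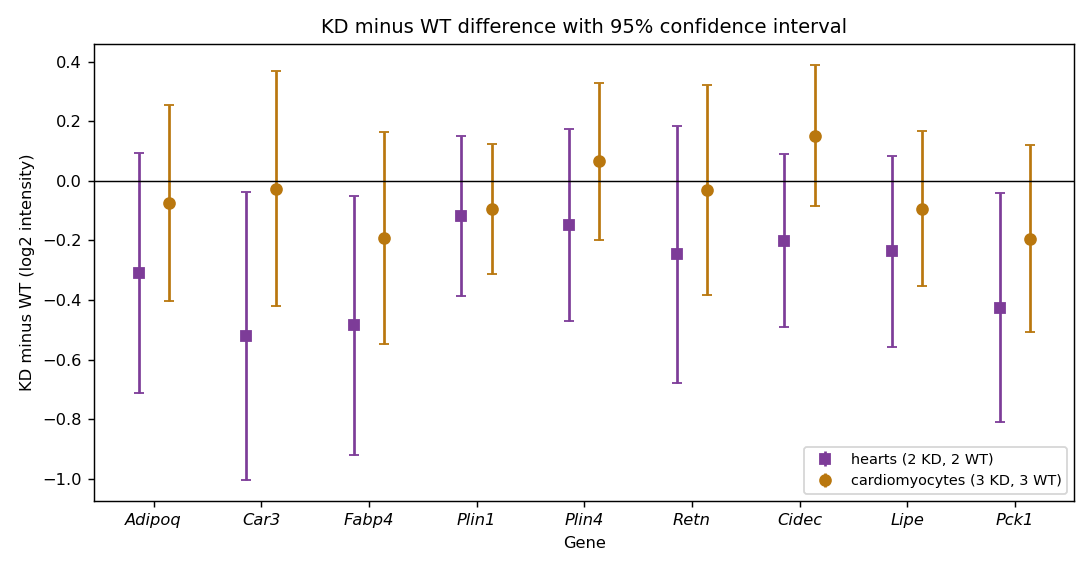
KD minus WT difference of each member in log2 units with its 95% confidence interval from limma, for hearts (2 KD and 2 WT arrays) and cardiomyocytes (3 KD and 3 WT arrays). All 9 heart points lie below 0, the intervals of Car3, Fabp4 and Pck1 stay below 0 before adjustment, and every cardiomyocyte interval spans 0.

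The heart difference minus the cardiomyocyte difference was below 0 for all 9 members, between -0.49 for Car3 and -0.02 for Plin1, beside 48.8% of all genes below 0. This interaction passed for none of them, and 0% of all genes were called. No member had an unadjusted p under 0.05, beside 3.49% of all genes. Cidec had the smallest unadjusted p, with a heart difference of -0.20 and a cardiomyocyte difference of 0.15. The gap of -0.35 had an SE of 0.17 (95% interval -0.73 to 0.02, unadjusted p = 0.064, adjusted p = 1.00). A KD difference of the fat cell genes in hearts was thus not shown to differ from that in cardiomyocytes.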

How the data were processed

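Per the labels' protocols, cDNA made from pooled RNA was end-labelled with biotin and hybridised to Affymetrix arrays. The deposited table holds 35556 probe sets as log2 intensity. Per the submitters' processing notes it was made with RMA and Partek, whose versions the sources used here do not give. RMA compresses differences of dim probes. The platform annotation gave 21789 probe sets 1 symbol, 1621 several and 12146 none, and for 999 genes with more than 1 probe set the brightest over the 10 arrays was kept. The Entrez identifiers of 19856 of 19938 genes matched the GRCm38.p6 table. Groups came from the genotype and tissue labels, and 0 columns matched no sample. The members, lists and tests were chosen with earlier results of these data known.

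All 10 arrays entered 1 fit with 4 group means in limma 3.58.1 under R 4.3.3 (eBayes with an intensity trend, 6 residual and 6.81 prior degrees of freedom), and two-sided p-values were adjusted by Benjamini-Hochberg across the 19938 genes, with a threshold of 0.05. Percentile ranks were fitted in the same way, with 3.31 prior degrees of freedom. A 95% interval reached, at the median over genes, 0.31 log2 units either side in hearts, 0.25 in cardiomyocytes and 3.19 rank points. The fit was tested on simulated data. Named were the members, Slc18a3, up to 4 genes of each list by smallest heart p, paralogs, and the 10 genes nearest to Adipoq; the text gives a subset, and Pdk4, Cyp2e1, Lep, Pparg, Cebpa and Ucp1 come from those lists, some chosen after their values were seen. Alternatives covered normalization, filters, weights, block, intensity trend, threshold and single arrays left out. Cfd and members' proteins were not analysed here.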

Additional observations from a re-analysis of the deposited data

Results flagged for a closer look

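Cidec, the droplet fusion gene, had both KD hearts below the WT heart mean, at 8.42 and 8.43 against 8.62 and 8.63 in WT hearts. All 3 KD cardiomyocyte arrays lay above the WT cardiomyocyte mean, at 5.78, 5.77 and 6.00 against 5.51, 5.82 and 5.77 in WT cardiomyocytes. The heart difference minus the cardiomyocyte difference was -0.35, and limma's interaction test did not pass for it (SE 0.17, adjusted p = 1.00).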

How the results depend on the processing

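In hearts the 9 members kept a lower mean in KD under all 15 alternatives, with none called. The loess alternative, which removes the trend of the difference on intensity, left a median of -0.28 over the members. Median differences over the members lay between -0.36 and -0.16. The dim gene filter, mean of probe sets, fit of 1 tissue and array weights left the members' median at -0.25, as in the main fit. So did the fits without trend, with robust spread, with the replicate block and with the 0.1 threshold. Those settings left the members' lowest and highest differences unchanged too, so they say nothing further on the direction. Only normalization, centring, loess and single arrays left out moved the values. The number of genes called in hearts over the whole table was 1 with the replicate block, and 0 to 303 with single arrays left out (303 without KD heart replicate 2, 2 without WT heart replicate 1, 1 without KD heart replicate 1). The same numbers for the interaction were 0 to 237 (237 without KD heart replicate 2, 2 without WT heart replicate 1). The labels state no pairing by replicate number, and whether same-numbered arrays belong together is not known. Same-numbered deviations correlated at 0.23 in hearts and at 0.15, 0.13 and -0.05 in cardiomyocytes. Differently numbered ones correlated at -0.23 in hearts, where 2 arrays per genotype fix this mirror value, and at -0.19 to 0.07 in cardiomyocytes. The block changed no member's call.

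In cardiomyocytes the members with a lower KD mean numbered 4 to 8 with single arrays left out (4 without WT cardiomyocyte replicate 2). With array weights Adipoq was at 0.0021 and Car3 at 0.0023. With single arrays left out Adipoq ran between -0.21 and 0.022, Car3 between -0.10 and 0.066, Retn between -0.19 and 0.13 and Plin4 between -0.023 and 0.15. For the interaction Plin1 ran between -0.10 and 0.049 and Pck1 between -0.51 and 0.048. The causes were not tested.

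Between tissues, log2 values centred on array medians put Fabp4 at 0.11, Lipe at 0.42, Fabp5 at 0.15, Plin2 at 0.33, Cidea at 0.33, Car14 at 0.81 and Pck2 at 0.075, cardiomyocytes minus hearts. That scale keeps the difference in spread between the tissues' arrays. In KD arrays alone Fabp5 was at 1.76 and Car14 at 1.10 rank points, and Car14 was at 0.36 among all probe sets. With single arrays left out Car14 ran between -0.42 and 0.041 points and Car4 between -0.11 and 4.48. The rank call of Lipe was lost in WT arrays alone (adjusted p = 0.062), in KD arrays alone (0.27), among all probe sets (0.10) and without the intensity trend (0.058); the cause was not tested. No setting reversed or ended the call of Adipoq, Car3, Cidec, Pck1, Plin1, Plin4 or Retn.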

Other observations

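Lipogenic genes of the fat cell varied between hearts of the same genotype. Fasn, the fatty acid synthase gene, had 10.21 and 8.93 in KD hearts and 10.62 and 8.98 in WT hearts, with replicate 1 above replicate 2 in each genotype. Acly, which makes cytosolic acetyl-CoA, had 9.36 and 8.10 in KD hearts and 9.54 and 8.41 in WT hearts. Elovl6, a fatty acid elongase gene, had 8.57 and 7.22 in KD hearts and 8.55 and 7.66 in WT hearts. Scd1, the stearoyl-CoA desaturase gene, had 12.27 and 11.36 in KD hearts and 11.90 and 11.12 in WT hearts. The genotypes overlapped for these 4 genes, which were chosen after their values were seen.

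Scd1 ranked 50.5 in cardiomyocytes and 98.5 in hearts. The summed linear intensity of the 9 members was 7506 and 6250 in KD hearts and 9900 and 8441 in WT hearts. Both KD hearts thus lay below both WT hearts in a sum weighted to the brightest members, Car3 and Fabp4. Sums of the endothelial, fibroblast, cardiomyocyte and atrial markers separated the same way, so this was not particular to fat cell genes. Red cell and platelet markers separated the other way. Sums of thymocyte and T cell, macrophage, mesothelial, skeletal muscle, airway and other white fat markers overlapped.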
